A study of Homo sapiens with 8 samples.

Results

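Neuroendocrine markers are genes of secretory vesicles and of neuronal gene control whose products are used to recognise neuroendocrine cells. Of such markers and their regulators, 7 were followed in LNCaP cells treated with inhibitors of the acetyltransferases p300 and CBP. They were SYP, CHGA, CHGB, SYT4, HES6, REST and INSM1, with REST included as a repressor of neuronal genes and not as a marker. The members were taken by name: every deposited transcript whose identifier belongs to 1 of these 7 genes in the GENCODE 29 annotation was summed per gene, 22 transcripts in all, out of 19431 genes that could be summed in the same way. LNCaP-FGC is an androgen-dependent human prostate cancer cell line of luminal character. It was treated for 24 h with DMSO (the solvent control), with I-CBP112, which occupies the bromodomain of p300 and CBP, with A-485, which blocks their catalytic site, or with I-CBP112 and A-485 together (called both below), and all 4 groups were the same line with no other agent named. Each group held 2 RNA-seq libraries, numbered 1 and 2, and the sources used here give no doses. The labels do not say whether the libraries came from separate cultures, so each p-value reflects only the spread among these libraries, which may be technical.

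Chromogranins (CHGA, CHGB) are packed in dense core vesicles, synaptophysin (SYP) sits in the membrane of small clear vesicles, and synaptotagmin 4 (SYT4) belongs to the family of vesicle proteins that take part in calcium-regulated secretion. REST is a zinc finger repressor that binds the RE1 element beside neuronal genes and keeps them silent outside neurons, INSM1 is a zinc finger factor of neuroendocrine differentiation, and HES6 is a basic helix-loop-helix protein that opposes the Notch effector HES1. In prostate cancer, gain of chromogranin and synaptophysin together with loss of REST activity and of luminal genes is the usual sign of a neuroendocrine phenotype.

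Levels are in scaled FPKM, the number of fragments relative to transcript length and library size, brought to a common scale across the 8 libraries, so that genes of different length can be compared. A gene was called expressed when it reached 1 scaled FPKM in at least 2 of the 8 libraries, which is also the condition for entering the test. By that measure 4 of the 7 genes were expressed (SYP, SYT4, HES6 and REST), 2 were detected at a low level (CHGA and CHGB) and 1 (INSM1) was listed at 0 in every library. The libraries numbered 1 held about 15.8 M to 28.5 M fragments (M for 1e+06) as recovered from the values. Those numbered 2 held 4.44 M to 13.5 M, fewer than number 1 in every group. In number 1 this was 90.8% to 99.4% of the library total that the values imply. In number 2 it was 22.6% (DMSO), 21.5% (I-CBP112), 33.9% (A-485) and 49.4% (both). The implied totals were higher in number 1 for DMSO and A-485 and higher in number 2 for I-CBP112 and both. The cause of the lower shares was not tested. All 9 luminal markers, among them KLK3, were expressed. Of the markers of other cells, 1 of 4 basal (KRT5, with TP63 at 0), 1 of 5 stromal (COL1A1), 1 of the 2 endothelial genes in the table (VWF) and 0 of 5 blood and immune genes (PTPRC, CD3E and HBB at 0) were expressed. KRT5 reached 1 scaled FPKM in libraries numbered 2 alone: it stood at 0.234 and 6.63 in DMSO, 0.597 and 13.96 in I-CBP112, 0.255 and 0 in A-485 and 0 and 1.65 in both.

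The sequences before the start sites show what the vesicle genes and HES6 carry there. RefSeq windows of 250 bases ahead of the start were found by symbol for 5 of the 7 genes (GRCh38.p14), and the 3 shown are the chromogranin with a cyclic AMP response element, the type of site at which CREB recruits CBP, and the 2 expressed genes that fell. Capitals mark matches on either strand to the motifs named below, while matches to other motifs that were searched stay in lower case. Each sequence runs 5′ to 3′ along the gene's strand.
CHGA, chr14:92922900-92923149, plus strand: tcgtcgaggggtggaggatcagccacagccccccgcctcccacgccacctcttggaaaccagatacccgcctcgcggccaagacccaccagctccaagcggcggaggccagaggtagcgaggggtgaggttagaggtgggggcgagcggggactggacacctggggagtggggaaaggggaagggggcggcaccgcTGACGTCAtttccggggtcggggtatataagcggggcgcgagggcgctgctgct
SYT4, chr18:43277491-43277740, minus strand: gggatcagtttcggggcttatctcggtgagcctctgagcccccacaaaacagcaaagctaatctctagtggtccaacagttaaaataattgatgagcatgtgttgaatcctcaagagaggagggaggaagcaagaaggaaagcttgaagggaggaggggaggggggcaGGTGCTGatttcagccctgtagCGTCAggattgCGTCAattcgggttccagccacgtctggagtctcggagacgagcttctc
HES6, chr2:238240039-238240288, minus strand: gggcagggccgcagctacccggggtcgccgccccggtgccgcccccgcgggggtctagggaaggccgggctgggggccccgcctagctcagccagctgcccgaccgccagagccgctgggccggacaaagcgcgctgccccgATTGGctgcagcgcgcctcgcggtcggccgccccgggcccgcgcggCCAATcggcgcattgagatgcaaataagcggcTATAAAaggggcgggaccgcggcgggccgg

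The CHGA window held a full cyclic AMP response element (TGACGTCA) 54 to 47 bases before the RefSeq start, from which all positions here are counted. Such a match was found in 1.65% of 35116 RefSeq windows of the same length. In SYT4 the capitals mark 2 copies of its 5-letter core TGACG (21.2% of windows), 60 to 56 and 49 to 45 bases before the start, and 1 match to the left part of the RE1 element, CAGCACC (6.16% of windows), 82 to 76 bases before the start. The HES6 window held 2 CCAAT boxes (32.0% of windows), at 108 to 104 and 62 to 58 bases, and a TATA box, TATAAA (10.7% of windows), at 30 to 25 bases. Both strands were searched, and a full element contains its core, so a CHGA match counts in both shares. None of these motifs was found in the SYP window. These are letter matches in 1 window per gene and not measured binding. The windows shown were picked for a motif or for the fall of the gene, and those of SYP and REST are not shown. A link between these motifs and the treatments was not tested.

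The chromogranins CHGA and CHGB and the factor INSM1 were absent or near absent in all 4 groups. CHGA, on chromosome 14, was listed at 0 in 7 libraries and at 0.0359 scaled FPKM in library 1 of both, which is worth about 1.06 fragments. CHGB, on chromosome 20, was listed at 0 in 7 libraries and at 0.0173 scaled FPKM in library 1 of A-485, about 1.05 fragments. INSM1, a single-exon gene also on chromosome 20, was listed at 0 in all 8. Neither chromogranin nor INSM1 therefore reached a measurable level in any group, and no fold change was computed for them.

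How low a level could have been seen depended on the library. A count of 0 leaves room for up to 3 fragments, for counting error only. That corresponds to 0.0614 to 0.448 scaled FPKM for CHGA, 0.0497 to 0.363 for CHGB and 0.0448 to 0.327 for INSM1. The lower value is for the library with the most recovered fragments and the higher for that with the fewest. All of these limits lie below the 1 scaled FPKM used to call a gene expressed. Values listed at 0 in such a table can also be failed estimates. The second CHGA transcript and the second CHGB transcript were at 0 in all 8 libraries.

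SYP, on the minus strand of chromosome X (chrX:49187804-49200259 in GENCODE 29, GRCh38, as for the positions that follow), was expressed at a low level and was highest with both inhibitors. Its levels were 1.53 and 1.57 scaled FPKM in DMSO, 2.83 and 1.42 in I-CBP112, 2.76 and 1.96 in A-485 and 4.81 and 4.58 in both. Both libraries of the combination lay above the other 6, the I-CBP112 libraries overlapped DMSO, and the A-485 libraries lay above DMSO. The DMSO mean exceeded that of 9.36% of the 11875 genes tested, so SYP was near the bottom of the expressed range.

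Against DMSO, SYP rose with both inhibitors by 1.16 ± 0.26 (SE) on the log2(scaled FPKM + 1) scale (limma, Benjamini-Hochberg adjusted p = 0.0281 over all genes), and its mean level was 3.03 times that of DMSO. In bulk RNA, a change in the number of cells with a transcript and a change in transcript per cell cannot be told apart. The difference was 1.20 between the libraries numbered 1 and 1.117 between those numbered 2. With A-485 alone the difference was 0.39 ± 0.26 (limma adjusted p = 0.376) and with I-CBP112 alone 0.25 ± 0.26 (limma adjusted p = 0.747), neither past the threshold of 0.05. Against either compound alone the combination did not pass the same test: it lay 0.91 ± 0.26 above I-CBP112 (limma adjusted p = 0.132) and 0.77 ± 0.26 above A-485 (limma adjusted p = 0.286). On unscaled values with a term for the library number, the difference from I-CBP112 passed (0.93, limma adjusted p = 0.0215). In order of level, both was followed by A-485, I-CBP112 and DMSO, and no neighbouring pair in that order passed the test.

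The SYP call was among the less secure ones. It rested on 11.6 to 164 fragments in the libraries compared, and it was lost when either DMSO library or either library of both was left out (limma adjusted p of 0.0817 and 0.0618 without DMSO 1 and 2, 0.154 and 0.132 without both 1 and 2), and when all genes were tested with no filter (limma adjusted p = 0.0511). SYP shares its locus with an antisense gene, SYP-AS1, and whether the counting used strand is not given in the sources used here.

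SYT4 was nearly lost when the inhibitors were combined, while neither compound alone gave a change that passed the test. The gene lies on the minus strand at chr18:43267878-43277650. Its levels were 6.08 and 9.77 scaled FPKM in DMSO, 5.14 and 3.39 in I-CBP112, 6.64 and 8.40 in A-485 and 0.257 and 0.246 in both. The 2 libraries of the combination lay far below the other 6, A-485 overlapped DMSO, and the I-CBP112 libraries lay below DMSO without overlap. In the recovered fragments, the combination held 9.32 and 7.19 for this gene against 336 and 140 with DMSO.

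Against DMSO, SYT4 fell by 2.80 on the log2(scaled FPKM + 1) scale (SE 0.27, limma adjusted p = 0.00094), and its mean level was 31.5 times lower. It was also lower than with each compound alone: the difference was -2.76 ± 0.27 against A-485 (limma adjusted p = 0.00372, mean 29.9 times lower), and -2.05 ± 0.27 against I-CBP112 (limma adjusted p = 0.00857, mean 17.0 times lower). I-CBP112 alone differed from DMSO by -0.75 ± 0.27 (limma adjusted p = 0.374), with -0.21 between the libraries numbered 1 and -1.30 between those numbered 2. A-485 alone differed by -0.04 ± 0.27 (limma adjusted p = 0.933). In order of level, DMSO was followed by A-485 and I-CBP112, no pair of which passed the test, and by both.

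Whether the fall in SYT4 with both inhibitors departs from the sum of the 2 single changes was tested as an interaction, which was -2.01 ± 0.38 on the log2 scale (limma adjusted p = 0.206), -2.40 and -1.62 within the libraries numbered 1 and 2. That difference did not pass the threshold. It passed in limma voom, a weighted fit of the approximate fragments, at -4.41 ± 0.60 (adjusted p = 0.0236). The fall against DMSO and that against A-485 passed the test whichever 1 of the 8 libraries was left out. The fall against I-CBP112 did not without I-CBP112 1 (limma adjusted p = 0.0606), both 1 (limma adjusted p = 0.0777) or both 2 (limma adjusted p = 0.0662).

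**Figure D1:**
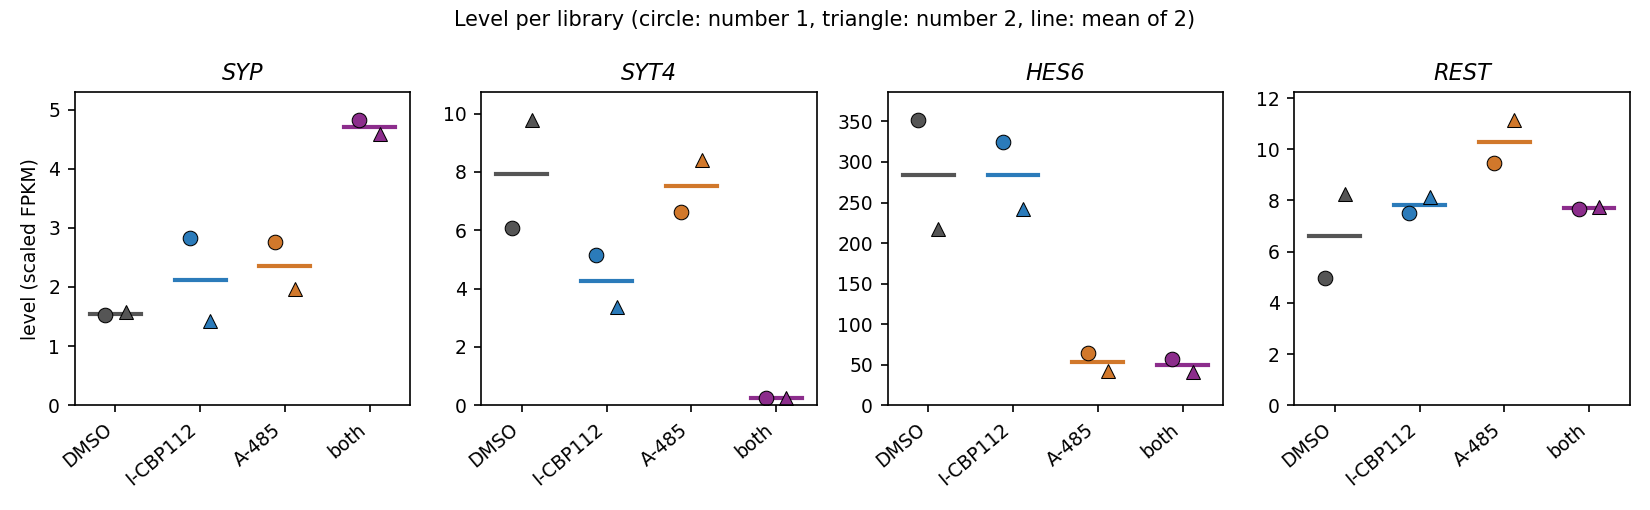
Level in scaled FPKM (vertical axes start at 0) of the 4 expressed genes in each of the 8 libraries, by treatment (horizontal axis); circles are libraries numbered 1, triangles those numbered 2 and lines the mean of the 2. SYT4 lies at 0.257 and 0.246 with both inhibitors, HES6 at 41.1 to 64.1 in the 4 libraries that received A-485, and SYP at 4.81 and 4.58 with both.

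HES6 was the most abundant of the 7 and fell wherever A-485 was present. The gene lies on the minus strand at chr2:238238267-238240662 and overlaps AC012485.1, a transcript of the other strand. Its levels were 351 and 217 scaled FPKM in DMSO, 325 and 242 in I-CBP112, 64.1 and 42.7 in A-485 and 57.0 and 41.1 in both. The 4 libraries with A-485 lay below the 4 without it with no overlap, while I-CBP112 overlapped DMSO and both overlapped A-485. With DMSO the mean level of HES6 exceeded that of 95.7% of the genes tested.

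Against DMSO, HES6 fell by 2.38 on the log2(scaled FPKM + 1) scale with A-485 (SE 0.32, limma adjusted p = 0.00897, mean 5.32 times lower) and by 2.49 with both (SE 0.32, limma adjusted p = 0.00333, mean 5.79 times lower). I-CBP112 alone differed by 0.02 ± 0.32 (limma adjusted p = 0.989), and adding I-CBP112 to A-485 changed it by -0.11 ± 0.32 (limma adjusted p = 0.923), differences smaller than their standard errors. Against I-CBP112, HES6 was lower with A-485 by -2.40 ± 0.32 (limma adjusted p = 0.0173) and with both by -2.51 ± 0.32 (limma adjusted p = 0.00791). The interaction was -0.13 ± 0.45 (limma adjusted p = 0.947).

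The fall of HES6 with both passed the test whichever library was left out. That with A-485 did not without DMSO 1 (limma adjusted p = 0.0547) or A-485 2 (limma adjusted p = 0.0727). The comparison of both with I-CBP112 was lost without I-CBP112 1 (limma adjusted p = 0.0606) or both 2 (limma adjusted p = 0.0662). That of A-485 with I-CBP112 was lost without any 1 of the 4 libraries compared (limma adjusted p of 0.0654 to 0.148) and with no filter (limma adjusted p = 0.0725).

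REST, the repressor of neuronal genes, was expressed in every library and no difference passed the test. The gene lies on the plus strand at chr4:56907876-56966678. Its levels were 4.97 and 8.25 scaled FPKM in DMSO, 7.49 and 8.12 in I-CBP112, 9.48 and 11.1 in A-485 and 7.65 and 7.74 in both. The A-485 libraries lay above the other 6, and the remaining groups overlapped. The DMSO libraries differed from each other more than the 2 libraries of any other group.

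With A-485 the mean of REST was 1.56 times that of DMSO, a difference of 0.60 ± 0.23 on the log2(scaled FPKM + 1) scale (limma adjusted p = 0.154), 0.81 and 0.39 between the libraries of the same number. It passed only when DMSO 2 was left out, at 0.92 (limma adjusted p = 0.0325). I-CBP112 differed from DMSO by 0.24 ± 0.23 (limma adjusted p = 0.727), both by 0.23 ± 0.23 (limma adjusted p = 0.568), and both from A-485 by -0.37 ± 0.23 (limma adjusted p = 0.574). REST overlaps NOA1, a protein-coding gene on the opposite strand, which stood at 19.9 to 31.8 scaled FPKM; whether reads of the 2 genes were separated by strand is not given in the sources used here.

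Set against all genes tested, the members behaved as follows. With I-CBP112, 0 of the 4 tested members were called, as was the case for 0.0% of the 11875 genes (limma; 1 member, SYT4, and 1319 genes had an unadjusted p below 0.05, and voom called 0 members). With A-485, 1 of 4 was called (HES6, lower), against 4.68% of all genes and 3.33% called lower. With both, 3 of 4 were called, SYP higher and SYT4 and HES6 lower, against 10.3% of all genes, 2.97% called higher and 7.33% called lower.

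Between treatments, 2 of 4 were called, both lower, for both against I-CBP112 (SYT4 and HES6; 2.17% of all genes), 1 for both against A-485 (SYT4; 0.808%) and 1 for A-485 against I-CBP112 (HES6; 0.825%). The interaction called 0 of 4 and 0.0% of all genes (limma; 1 member, SYT4, and 1055 genes had an unadjusted p below 0.05, and voom called SYT4). The median log2 difference of the 4 tested members was 0.13 for I-CBP112, 0.17 for A-485 and -1.13 for both, where those of all genes were -0.02, -0.01 and 0.02. The 3 comparisons with DMSO share their control libraries. With a term for the library number, which pairs libraries across groups, the same members were called, while the genes called rose from 556 to 1579 with A-485 and from 1224 to 2255 with both. On the deposited values without scaling, 0 members passed in any comparison, and with that block added HES6 passed with A-485 and SYP, SYT4 and HES6 with both, in the directions given above, and SYP passed also for both against I-CBP112.

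**Figure D2:**
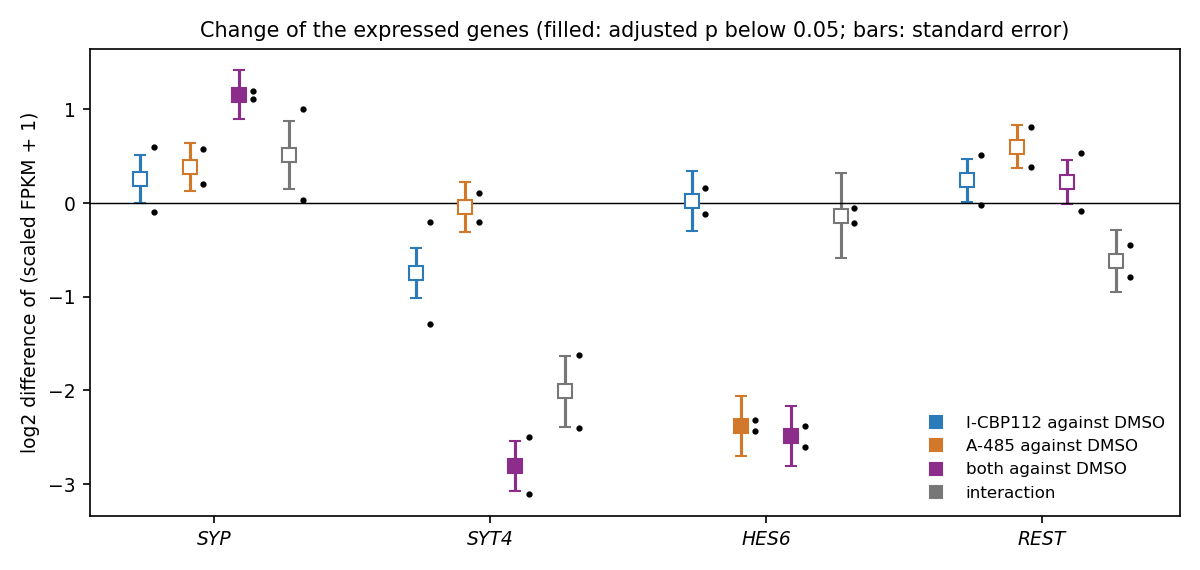
Difference in log2(scaled FPKM + 1) (vertical axis) for the 4 expressed genes in the 3 comparisons with DMSO and the interaction, the departure of both from the sum of the single changes. Squares are limma estimates with 1 standard error, filled where the adjusted p was below 0.05, and the small dots are the differences between libraries of the same number; SYT4 with both, at -2.80, is the lowest value.

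At the level of single transcripts, 11 of the 22 member transcripts were abundant enough to be tested: 7 of 9 of HES6, 2 of 4 of SYT4, 1 of 3 of SYP and the 1 of REST. With both, 1 passed the test, SYT4-201, against 107 of 31846 transcripts tested (0.336%). With I-CBP112, 0 member transcripts passed (7 of all transcripts, 0.022%) and with A-485, 0 passed (0 of all, 0.0%, limma; 3330 transcripts had an unadjusted p below 0.05).

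SYT4-201 (4110 bases in 4 exons) carried nearly all of SYT4 in DMSO. It stood at 6.08 and 9.77 scaled FPKM in DMSO, 4.01 and 3.38 in I-CBP112, 6.48 and 6.44 in A-485 and 0.0855 and 0.151 in both. The 2 libraries of both were the lowest by a wide margin, and the transcript fell by 2.97 on the log2 scale (SE 0.34, limma adjusted p = 0.0399 over all transcripts). This call was lost in all 8 fits with 1 library left out (limma adjusted p of 0.0951 to 0.292) and with the library number as a block (limma adjusted p = 0.0577). The short transcript SYT4-208, of 565 bases, was at 1.13 in I-CBP112 1 and 1.95 in A-485 2 and below 0.1 in the other 6 libraries, and was worth at most 8.09 fragments in any library.

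HES6 was read mainly as 2 transcripts, HES6-203 (1600 bases, 3 exons, 642 coding bases) and HES6-201 (1454 bases, 4 exons, 672 coding bases), which together made up 60.3% to 94.3% of the gene in the 8 libraries. HES6-203 stood at 169 and 104 scaled FPKM in DMSO, 149 and 94.2 in I-CBP112, 35.3 and 20.5 in A-485 and 25.6 and 19.3 in both. As for the whole gene, its 4 libraries with A-485 lay below the 4 without, by -2.25 ± 0.40 with A-485 (limma adjusted p = 0.210) and -2.52 ± 0.40 with both (limma adjusted p = 0.0946). With the library number as a block, the latter passed (limma adjusted p = 0.0155), and HES6-203 was then the 1 member transcript called.

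HES6-201 varied within a group: 133 and 27.3 scaled FPKM in DMSO, 118 and 130 in I-CBP112, 17.1 and 19.4 in A-485 and 21.3 and 19.5 in both. DMSO 2 stood apart from DMSO 1, and in that library the transcript HES6-202 took 61.5 scaled FPKM, against 5.31 in DMSO 1 and at most 5.18 elsewhere. HES6-201 differed by -1.68 ± 0.67 with A-485 (limma adjusted p = 0.468) and -1.53 ± 0.67 with both (limma adjusted p = 0.481). The split of HES6 between its transcripts was thus less repeatable than the sum.

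SYP was carried by SYP-201 (2498 bases, 7 exons), which stood at 1.40 and 0.647 scaled FPKM in DMSO, 2.48 and 1.42 in I-CBP112, 2.31 and 1.56 in A-485 and 4.03 and 3.98 in both. The libraries of both were again the highest, at a difference of 1.33 ± 0.40 (limma adjusted p = 0.305) that did not pass. SYP-201 and SYP-207 have coding parts of the same length, 939 bases, and SYP-201 made up at least 79.6% of the gene in 7 libraries and 41.1% in DMSO 2. REST had a single transcript in the table, REST-201 of 7300 bases.

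**Figure D3:**
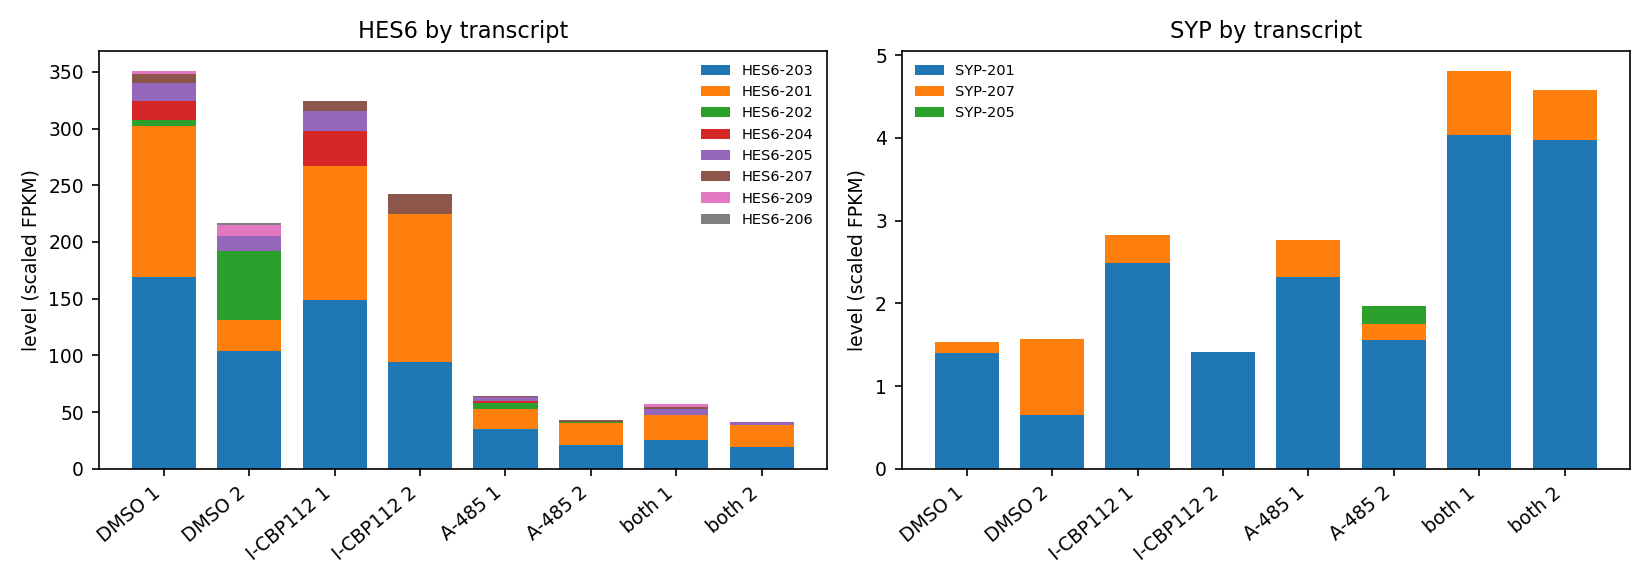
Level in scaled FPKM (vertical axes start at 0) of HES6 and SYP in each library, stacked by transcript, with the 8 libraries along the horizontal axis. HES6-203 and HES6-201 form most of HES6, except that HES6-202 takes 61.5 scaled FPKM in DMSO 2, and SYP-201 forms most of SYP in 7 of the 8 libraries.

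Genes whose levels followed a member most closely over the 8 libraries were read from the correlation of log2(scaled FPKM + 1) across all tested genes, as a description. For HES6 they included SLC45A3 (r = 0.99; mean 157 scaled FPKM in DMSO, 152 in I-CBP112, 16.6 in A-485 and 15.5 in both) and SPON2 (r = 0.99). For SYT4 they were SFXN2, CDK19 and ABCC4 (r = 0.99, 0.99 and 0.98), and ABCC4 averaged 23.2 scaled FPKM in DMSO, 13.7 in I-CBP112, 18.4 in A-485 and 4.19 in both. SYP was followed by TOR1AIP1, MAGED4B and PLEKHG6 (r = 0.97 for each) and REST by AKAP9, HAT1 and ATRX (r = 0.99 for each). Among the members, SYP and SYT4 ran opposite (r = -0.81 over the same 8 libraries), as did SYP and HES6 (r = -0.63) and HES6 and REST (r = -0.61); such values rest on 4 groups and libraries that share a treatment.

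Other genes of the same biology were read from 5 lists, also chosen with earlier results of these data known. Of 25 dense core and synaptic vesicle genes, 11 were expressed, 11 were low and 3 were listed at 0, and the 3 most abundant were PCSK1N, an inhibitor of prohormone convertase, CPE, which trims peptide hormones, and RAB3A, a vesicle GTPase. With both, 3 of the 11 rose and 1 fell, where 2.97% of all genes were called higher and 7.33% lower. With I-CBP112 or A-485 alone 0 were called (limma; 2 and 3 had an unadjusted p below 0.05, and voom called 0 with I-CBP112 and 1 higher and 2 lower with A-485), and the median difference with both was 0.56, against 0.02 over all genes. CPLX1, complexin 1, stood at 13.3 and 9.16 scaled FPKM with DMSO and 30.9 and 24.2 with both, and rose by 1.23 ± 0.26 (limma adjusted p = 0.0232). The synaptic vesicle protein gene SYNGR3 rose by 1.24 ± 0.21 (limma adjusted p = 0.00995). The granin VGF, at 2.16 and 1.56 with DMSO and 0.647 and 0.314 with both, fell by 0.95 (SE 0.24, limma adjusted p = 0.0430).

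These counts were sensitive to single libraries: of the 3 vesicle genes called higher with both, 1 (SYNGR3) remained without DMSO 2 and 0 without both 1 or both 2, and VGF passed in 1 of the 8 fits with a library left out, that without DMSO 2. With the library number as a block, PCSK1N (limma adjusted p = 0.0171) and VAMP2 (limma adjusted p = 0.0458) were added to the genes called higher with both, which made 5, and VAMP2 was also called higher with A-485 (limma adjusted p = 0.0411). VAMP2 was named after its values were seen.

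Of 20 other neuroendocrine markers and peptides, 6 were expressed, 10 were low and 4 were listed at 0. ENO2, neuron-specific enolase, stood at 30.6 and 17.5 scaled FPKM in DMSO, 29.3 and 31.8 in I-CBP112, 35.5 and 33.7 in A-485 and 73.3 and 70.7 in both. The libraries of both were the highest, and ENO2 rose by 1.60 ± 0.25 (limma adjusted p = 0.00727), a call lost without both 1. TUBB3, a neuronal tubulin, rose by 1.23 ± 0.28 with both (limma adjusted p = 0.0295), lost without DMSO 2, both 1 or both 2. DDC, the decarboxylase that makes dopamine and serotonin, moved the other way: from 98.8 and 112.2 with DMSO to 27.4 and 35.6 with A-485 and 7.45 and 11.3 with both, so that it fell by 1.72 with A-485 (SE 0.25, limma adjusted p = 0.0114) and by 3.38 with both (SE 0.25, limma adjusted p = 0.000383). The fall with both passed whichever library was left out, while that with A-485 was lost without DMSO 1, A-485 1 or A-485 2. With both, 2 of the 6 thus rose and 1 fell, where 2.97% of all genes were called higher and 7.33% lower. With A-485 alone 1 fell, where 3.33% were called lower. The median over the 6 was 0.04 with both. With I-CBP112, 0 of the 6 were called (limma; 1 had an unadjusted p below 0.05, and voom called 0), and the block added BEX1 to those lower with A-485 (limma adjusted p = 0.0486), a gene named after its values were seen.

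Of 16 neuroendocrine transcription factors only LHX2, MYT1 and ONECUT2 were expressed, 8 were low, and 5, among them NEUROD1, NEUROG3, INSM2 and FOXA2, were listed at 0 in all libraries. None of the 3 was called in any comparison with DMSO (limma; 1 had an unadjusted p below 0.05 with both and 0 with either alone, and voom called 1 lower with both), and their median with both was -0.49. Of 16 REST corepressors and regulators, 15 were in the table and 14 were expressed, led by HDAC1, HDAC2 and the demethylase KDM1A, and none was called (limma; 1 had an unadjusted p below 0.05 with both and 0 with either alone, and voom called 1 higher with both). SRRM4, the splicing factor that inactivates REST, was low.

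In the Notch pathway, 14 of 19 genes were expressed, 3 were low and 2 were listed at 0; among the most abundant were HES4 and the DNA-binding subunit RBPJ. With A-485, 3 of the 14 fell and 0 rose, where 3.33% of all genes were called lower: the ligand JAG1 by 1.56 (SE 0.18, limma adjusted p = 0.00551), the effector HES1 by 1.21 (SE 0.24, limma adjusted p = 0.0302) and the feedback inhibitor NRARP by 1.21 (SE 0.19, limma adjusted p = 0.0152). In voom, 2 were called higher and 4 lower with A-485, and 0 higher and 6 lower with both. With I-CBP112, 0 were called (limma; 3 had an unadjusted p below 0.05, and voom called 0). With both, 5 of the 14 fell and 0 rose, where 7.33% of all genes were called lower, and they were HES1, NRARP, JAG1, DTX2 and JAG2 (the last named although it was not among the 4 with the largest change). HES1, the factor that HES6 opposes, stood at 3.27 and 2.58 scaled FPKM in DMSO, 1.91 and 2.997 in I-CBP112, 0.770 and 0.613 in A-485 and 0.195 and 0.130 in both, and fell by 1.75 with both (SE 0.24, limma adjusted p = 0.00392). HES6 and HES1 thus both fell in the 2 groups with A-485, and their ratio was not tested. HES1, NRARP and JAG1 passed with both whichever library was left out, while JAG2 and DTX2 each passed in 1 of the 8 such fits (JAG2 without DMSO 2, DTX2 without DMSO 1). The falls with A-485 were less secure: HES1 lost its call without DMSO 1, A-485 1, A-485 2, both 1 or both 2. NRARP lost it without DMSO 1, A-485 1 or A-485 2, and JAG1 without A-485 2. Over these fits the difference with A-485 was -1.34 to -1.08 for HES1, -1.39 to -1.02 for NRARP and -1.67 to -1.45 for JAG1. The block added HES4 to the genes lower with A-485 (limma adjusted p = 0.0186) and with both (limma adjusted p = 0.00823), and RBPJ as higher with both (limma adjusted p = 0.0484).

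**Figure D4:**
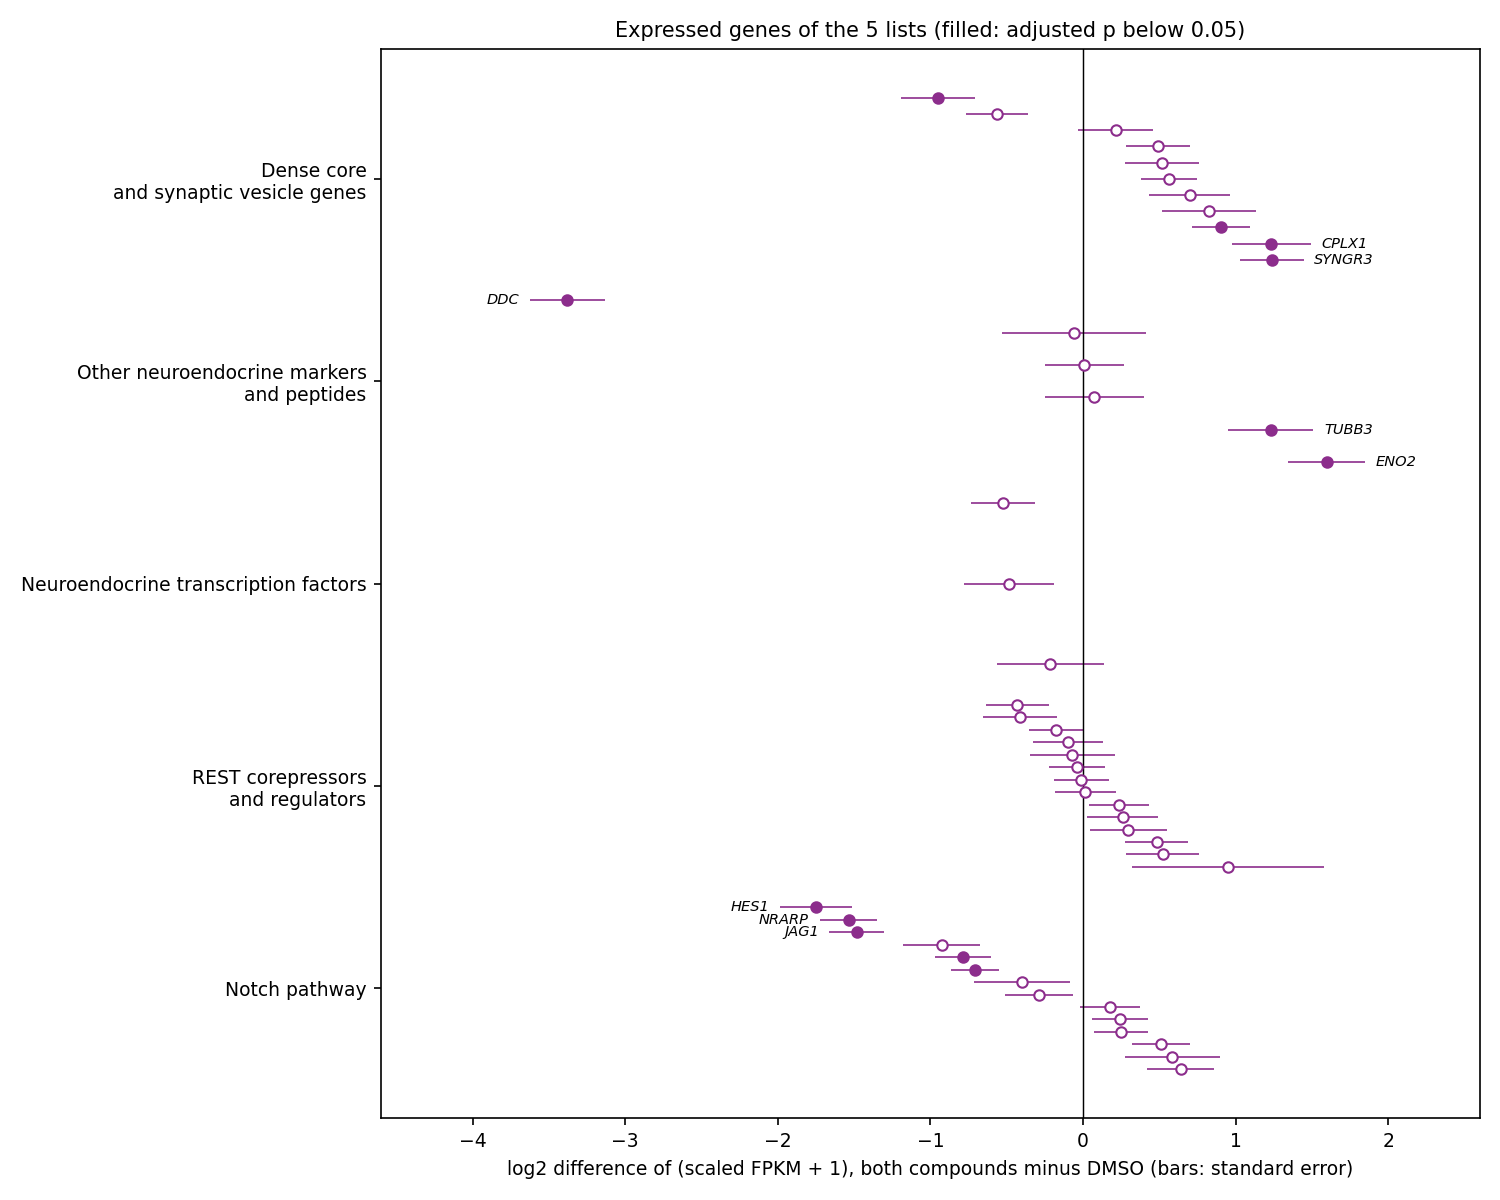
Difference in log2(scaled FPKM + 1) between both inhibitors and DMSO (horizontal axis) for each expressed gene of the 5 lists (vertical axis), with 1 standard error; filled points had a limma adjusted p below 0.05, and those that differed by more than 1 are named. DDC is the lowest at -3.38 and ENO2 the highest at 1.60.

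Luminal identity genes and some markers of other cell types moved beside these changes. Of the 9 luminal markers, 6 fell with A-485 (3.33% of all genes were called lower) and 6 with both (7.33%). The 9 summed to 4745 to 6040 scaled FPKM in DMSO, 3335 to 3608 in I-CBP112, 2119 to 2509 in A-485 and 1807 to 2444 in both. With both, KRT8 alone stood at 1437 and 736, and it did not fall against DMSO (0.08, limma adjusted p = 0.919). KLK3, KLK2 and TMPRSS2 were lower with both than with A-485, at -3.54, -3.23 and -2.41 (limma adjusted p = 0.000713, 0.00364 and 0.00364). No other luminal marker passed in that comparison, and KRT8 (0.627), FOLH1 (0.501) and KRT18 (0.098) were higher. The 5 stromal markers summed to 3.73 to 4.01 in DMSO, 6.26 to 6.34 in I-CBP112, 9.91 to 10.7 in A-485 and 9.59 to 11.8 in both, nearly all of it COL1A1, a fibrillar collagen. COL1A1 rose by 1.23 ± 0.18 with A-485 (limma adjusted p = 0.0114), a call lost without DMSO 1, A-485 1 or A-485 2 (limma adjusted p up to 0.104), and by 1.35 ± 0.18 with both (limma adjusted p = 0.00353). The endothelial gene VWF, von Willebrand factor, stood at 3.45 and 2.43 scaled FPKM in DMSO, 2.10 and 1.67 in I-CBP112, 7.77 and 4.69 in A-485 and 1.25 and 1.01 in both. It was called lower for both against A-485, at -1.73 ± 0.26 (limma adjusted p = 0.0259), a call lost without any 1 of the libraries of the 3 treated groups (limma adjusted p up to 0.228). Its differences from DMSO were 0.85 with A-485 (limma adjusted p = 0.0952) and -0.88 with both (limma adjusted p = 0.0706), and with the block each of these differences passed (limma adjusted p = 0.0374 and 0.0252). The part of these changes in the results above was not tested.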

How the data were processed

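RNA was sequenced from LNCaP-FGC cells in 8 libraries, 2 in each of 4 groups, extracted with Trizol and prepared with an NEB kit per the labels' protocols. In the submitters' processing notes, hg19 and GRCh37 are the builds and STAR, Cufflinks, DESeq2 and DESeq the tools, without roles. The table the authors deposited, called counts, holds FPKM per transcript (81591 transcripts): 78.3% of the numbers in it carry a fraction, and the FPKM summed to 181486 to 808443 per library. Low values were whole multiples of 1 step for 76.3% to 82.6% of the transcripts checked (within 0.1), from which fragments were approximated, and these are not exact counts.

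Transcripts were joined to genes by Ensembl identifier without version in GENCODE 29 (74271 matched, 91.0%), and only transcripts present in both were summed. Each library was set to a sum of 1e+06, followed by trimmed-mean scaling (30% of log ratios and 5% of levels trimmed). On the deposited scale the median gene differed from DMSO by 0.05 (I-CBP112), 0.35 (A-485) and 0.58 (both) in log2, which is the shift that scaling removed. Genes or transcripts with at least 1 scaled FPKM in at least 2 libraries entered a two-sided limma test (version 3.58.1, R 4.3.3) of log2(scaled FPKM + 1). It gave each group its mean and a trended, robust spread shared by the 4 groups, with p-values adjusted by Benjamini-Hochberg to 0.05 over all genes (or all transcripts) tested; 11875 genes were tested and 4 residual degrees of freedom remained. The pseudocount of 1 understates changes of low genes. The limits for values listed at 0 cover counting error only, while the standard errors come from the spread among libraries. The fit was tested on simulated data.

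Libraries of the same number carry a shared prefix in the labels, and their deviations from the group means correlated in 6 of 6 pairs of groups (0.14 to 0.43), so the numbers were taken to pair the libraries and a fit with the number as a block was made beside the main one. The alternatives were a pseudocount of 0.1, no scaling, median-of-ratios scaling, no filter, the block, no trend, voom on approximate fragments, and leaving out each library; no scaling together with the block was chosen after seeing the data. All 7 members are described; from each list at most 4 called genes with the largest change with both and the 3 most abundant were to be named, and for each tested member the 3 most correlated genes. The members and lists were chosen with earlier results of these data known. Values of some genes of the lists and of the most correlated genes are not reported here.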

Additional observations from a re-analysis of the deposited data

How the results depend on the processing

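On the deposited scale without scaling, where library sums differ up to several-fold, 0 members were called in every comparison (A-485 against DMSO, both against DMSO, both against I-CBP112, both against A-485 and A-485 against I-CBP112), and 0 transcripts with both; the cause was not tested. With the replicate block added to those unscaled values, the members called with A-485 (1) and both (3) were again HES6, and SYP, SYT4 and HES6, while SYP was gained for both against I-CBP112 (3 members called there, adjusted p = 0.0215) and 0 transcripts passed with both. On scaled values the replicate block changed no member gene call (SYP with both, adjusted p = 0.0156). Without the filter, 0 members were called for A-485 against I-CBP112. In voom the interaction called 1 member, SYT4. The transcript count with both was 0 with no trend and not robust and 0 in voom.

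Leaving out 1 library at a time gave 0 to 2 members with A-485, 2 to 3 with both, 0 to 2 for both against I-CBP112, 1 for both against A-485, 0 to 1 for A-485 against I-CBP112 and 0 transcripts with both. Differences near 0 changed sign. Without scaling these were SYT4 with A-485 (0.34), HES6 for both against A-485 (0.15), the HES6 interaction (0.0691) and REST for both against I-CBP112 (0.48), and the values were the same with the block. With a library left out, the ranges were, for SYP, -0.0777 to 0.59 with I-CBP112 and -0.20 to 0.47 for A-485 against I-CBP112; for SYT4 with A-485, -0.35 to 0.26; for HES6, -0.32 to 0.37 with I-CBP112, -0.40 to 0.18 for both against A-485 and -0.48 to 0.21 for the interaction; and for REST, -0.0723 to 0.56 with I-CBP112, -0.0896 to 0.54 with both and -0.0683 to 0.0338 for both against I-CBP112. Across all settings tried, none of the called falls of SYT4 and HES6 or the rise of SYP changed direction. The number of recovered fragments limits the low values: the fewest behind SYP were about 11.5 and behind SYT4 about 7.19.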
